A study of Homo sapiens with 12 samples.

Results

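Open chromatin was examined at the genes of 8 transcription factors that build or maintain pancreatic cell types, PDX1, PTF1A, GATA4, GATA6, HNF4A, FOXA1, FOXA2 and SOX9. The genes were taken as a named set, and each was given a window made of its RefSeq gene span on GRCh38 extended by 20 kb on both sides. They are 8 of the 19974 protein-coding genes of that annotation. Their windows held 217 of the 671854 peaks called in 12 libraries, and 50 of the 178040 regions obtained by merging peaks that overlapped between libraries.

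The libraries came from MIAPaCa2, an established human pancreatic ductal adenocarcinoma (PDAC) line, and were made by ATAC-seq, in which a transposase cuts and tags DNA that is accessible in nuclei. The libraries formed 4 groups of 3, namely untreated parental cells, parental cells treated with an LDHA inhibitor, untreated LDHA inhibitor resistant cells, and resistant cells treated with the inhibitor. The inhibitor was oxamate, a pyruvate analog that blocks lactate dehydrogenase, and untreated cells received phosphate-buffered saline. Resistant cells were polyclonal populations that had survived prolonged culture in oxamate, so differences from parental cells refer to this selection. No source says that the 3 libraries of a group came from separate cultures, and p-values therefore measure the spread between libraries, which may be technical.

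These factors act in a cascade. FOXA1 and FOXA2 are forkhead proteins able to bind compacted chromatin early in endoderm formation, GATA4 and GATA6 act beside them in gut and pancreas specification, and PDX1, PTF1A and SOX9 mark the multipotent progenitors of the pancreatic bud. In the adult organ PTF1A is held in acinar cells, SOX9 in duct cells, and PDX1 mainly in beta cells, while HNF4A, a nuclear receptor, acts in hepatic, intestinal and pancreatic epithelium. In PDAC, GATA6, HNF4A, FOXA1 and PDX1 are commonly read as markers of the classical, epithelial state.

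At 7 of the 8 genes the start, or the gene ends standing in for it, had a peak in every library or in none. A peak lay within 1 kb of the start, or of a gene end where the start could not be placed, in 12 of 12 libraries at PDX1, GATA6, FOXA1 and SOX9. None lay there in any library at GATA4, HNF4A and FOXA2, and PTF1A had 1 in 2 of 12 libraries. At GATA4 only the outer gene ends were searched, so the starts of shorter transcripts inside the gene were not judged. The gene held regions called in 12 of 12 libraries away from those ends, and whether they cover a start was not determined. Among all protein-coding genes 55.7% carried such a peak in 12 of 12 libraries and 27.3% in 0 of 12, so the 4 genes with a peak throughout were about as frequent as in the genome at large.

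**Figure D1:**
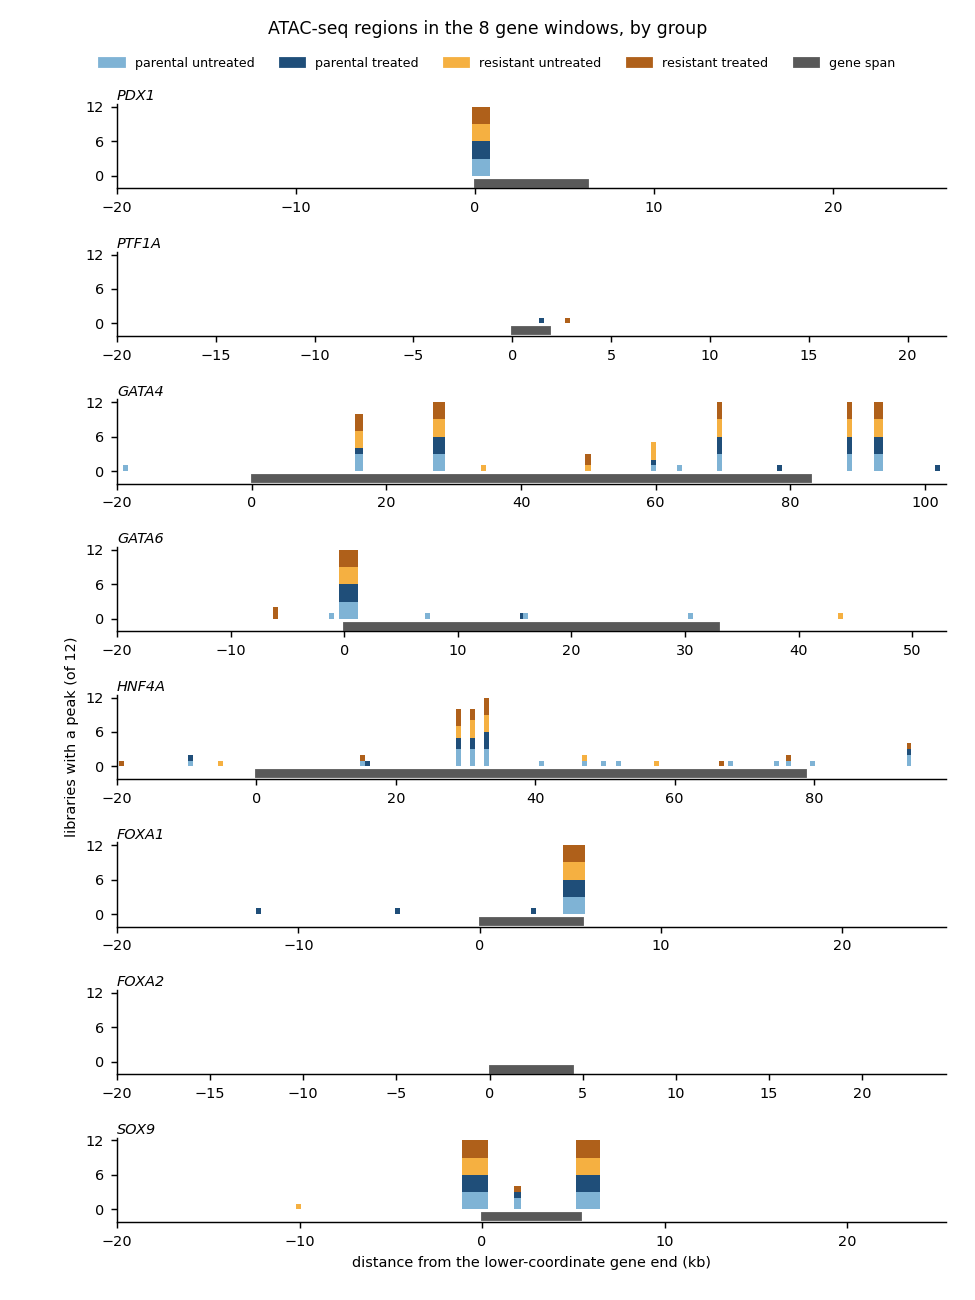
Regions in the windows of the 8 genes. The horizontal axis is the distance in kb from the gene end with the lower coordinate, the grey bar is the gene span, and each column stands for 1 merged region, its height giving the number of libraries with a peak there (of 12) coloured by group. Narrow regions are drawn slightly wider than they are. PDX1, GATA6, FOXA1 and SOX9 had a region in 12 libraries at a gene end, GATA4 and HNF4A had such regions away from the ends, and FOXA2 had no region.

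RefSeq promoter windows on GRCh38.p14, reaching from 250 bases before to 50 bases after the start, matched 3 of the 8 genes. They are printed because they contrast starts with and without peaks. Each runs 5′ to 3′ on the strand of the gene. Capitals mark words found on either strand, namely TGTTTAC of forkhead factors, AGATAA or else TGATAA of zinc finger factors like GATA6, ACAATG or else ACAAAG of SOX factors, TAATTA of homeodomain factors and CAAAGTCCA of HNF4 factors. FOXA1 lies at chr14:37595200-37595499 on the minus strand, GATA6 at chr18:22169339-22169638 on the plus strand, and the HNF4A windows at chr20:44355449-44355748 and chr20:44400989-44401288 on the plus strand.
FOXA1: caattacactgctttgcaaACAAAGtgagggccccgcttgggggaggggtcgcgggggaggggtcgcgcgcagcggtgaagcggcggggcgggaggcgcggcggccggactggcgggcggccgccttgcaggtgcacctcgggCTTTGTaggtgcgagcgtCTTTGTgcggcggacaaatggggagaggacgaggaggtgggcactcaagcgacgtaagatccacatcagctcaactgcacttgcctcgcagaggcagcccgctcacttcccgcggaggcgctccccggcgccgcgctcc
GATA6: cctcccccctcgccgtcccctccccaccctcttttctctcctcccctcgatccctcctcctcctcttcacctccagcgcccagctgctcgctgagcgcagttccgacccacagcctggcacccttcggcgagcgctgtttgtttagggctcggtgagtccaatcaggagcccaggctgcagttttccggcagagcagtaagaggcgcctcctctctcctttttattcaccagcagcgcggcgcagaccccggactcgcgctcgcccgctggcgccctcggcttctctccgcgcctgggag
HNF4A, start with the lower coordinate: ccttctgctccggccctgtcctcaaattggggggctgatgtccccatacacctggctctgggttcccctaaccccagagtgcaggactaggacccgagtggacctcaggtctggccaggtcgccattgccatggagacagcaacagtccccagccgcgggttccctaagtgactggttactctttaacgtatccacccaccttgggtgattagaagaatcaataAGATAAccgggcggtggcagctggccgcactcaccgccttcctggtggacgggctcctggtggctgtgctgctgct
HNF4A, start with the higher coordinate: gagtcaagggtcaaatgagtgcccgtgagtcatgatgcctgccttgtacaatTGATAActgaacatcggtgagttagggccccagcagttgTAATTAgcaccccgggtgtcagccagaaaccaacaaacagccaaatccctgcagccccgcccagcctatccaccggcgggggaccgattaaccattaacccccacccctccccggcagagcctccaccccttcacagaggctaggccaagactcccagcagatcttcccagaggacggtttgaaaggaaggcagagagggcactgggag

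Base composition differed between the windows with and without peaks. The ratio of observed to expected CpG dinucleotides was 0.966 at FOXA1 and 0.824 at GATA6, and a peak overlapped these windows in 6 and in 12 libraries. It was 0.409 and 0.364 in the HNF4A windows, which a peak overlapped in 0 libraries. Over all 34789 promoter windows, 65.9% of those with a ratio of at least 0.6 overlapped a peak in 12 of 12 libraries and 19.1% in 0 of 12. Of the windows under 0.6, 6.40% overlapped a peak in 12 libraries and 81.2% in none.

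The letters matched few lineage factor words. The FOXA1 window held 3 matches of ACAAAG, a SOX word found in 16.1% of all promoter windows. The GATA6 window held none of the capitalised words, but 1 CCAAT (NFY, 34.6% of windows) and 1 CANNTG (E-box, 68.7%). CANNTG also matched 4 times at FOXA1 and 2 and 3 times at the lower and higher HNF4A starts. CCAAT also matched 1 time at the lower HNF4A start. The lower HNF4A window held 1 AGATAA, present in 10.4% of windows. The higher one held 1 TGATAA (7.52%), 1 TAATTA (4.86%) and 1 TGANTCA (AP-1, 7.69%). GGGCGG, the SP word found in 44.9% of windows, matched 2 times at FOXA1, 1 time at each HNF4A start and 0 times at GATA6. TGTTTAC (3.42% of windows), ACAATG (10.7%) and CAAAGTCCA (0.385%) matched nowhere in the 4 windows. Each word was searched by itself on both strands, so matches of different words may share letters, as ACAAAG and CAAAGTCCA can. A match describes the letters and does not locate a bound site.

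PDX1, the homeodomain factor required for the pancreas to form and later for insulin gene transcription, had the simplest window. It held 1 region, chr13:27919839-27920821, which spans the lower-coordinate gene end at 27920000. PDX1 peaks covered 272, 317 and 279 bp in the untreated parental libraries, 293, 299 and 532 bp in the treated parental ones, 352, 345 and 415 bp in the untreated resistant ones, and 322, 242 and 931 bp in the treated resistant ones. Every library was open there, over 319.5 bp at the median, and the widest peak was that of treated resistant replicate 3. The fold over local background written by the peak caller was 4.44 to 9.82 for the best peak of each library, with a median of 6.30. Ranked by q value within its own list, that peak stood in the top 16.4% to 37.3%.

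GATA6, a zinc finger factor of endoderm whose loss is associated with the basal-like state of PDAC, was open at its start. Its region, chr18:22169122-22170759, covers the start at 22169589 and reaches to within 1 kb of an end of the lncRNA gene GATA6-AS1. There the peaks covered 437, 599 and 296 bp in untreated parental, 325, 289 and 145 bp in treated parental, 1305, 451 and 1322 bp in untreated resistant, and 802, 532 and 941 bp in treated resistant libraries. The treated parental and treated resistant values did not overlap, as in 48.7% of the 24148 regions called in 12 libraries. The promoter window printed above was covered over 11 to 300 bp, with a median of 181 bp. Of the other 7 GATA6 regions, 6 were called in 1 library and 1 in both treated resistant replicates 2 and 3.

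FOXA1 was open just inside the gene. Its region, chr14:37594148-37595351, covers the start at 37595249, and the neighbouring gene TTC6 begins or ends within 1 kb of it. The peaks covered 814, 1119 and 471 bp in untreated parental, 251, 913 and 120 bp in treated parental, 1080, 1009 and 982 bp in untreated resistant, and 899, 979 and 946 bp in treated resistant libraries. The 6 resistant libraries stayed between 899 and 1080 bp, whereas the 6 parental ones ran from 120 to 1119 bp. Only 6 of the 12 libraries had a peak reaching into the FOXA1 promoter window, over at most 152 bp, so most of the open stretch lay downstream of the printed bases. The other 3 FOXA1 regions were each called in 1 treated parental library.

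SOX9, the HMG-box factor of pancreatic progenitors and duct cells, was open at both ends of the gene. At the lower-coordinate end, chr17:72119941-72121320, which also covers an end of SOX9-AS1, the peaks covered 792, 493 and 279 bp in untreated parental, 730, 239 and 344 bp in treated parental, 1174, 706 and 1173 bp in untreated resistant, and 1267, 374 and 1071 bp in treated resistant libraries. The best peak of each library there ranked in the top 7.64% to 31.7% of its list, and 7.64% was the best rank at any gene end among the 8. At the higher-coordinate end, chr17:72126168-72127452, coverage ran from 111 bp in treated parental replicate 1 to 1280 bp in treated resistant replicate 3. The rank of that second peak was in the top 20.1% to 59.1%. A smaller region inside the gene, chr17:72122794-72123125, was called in 4 libraries.

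**Figure D2:**
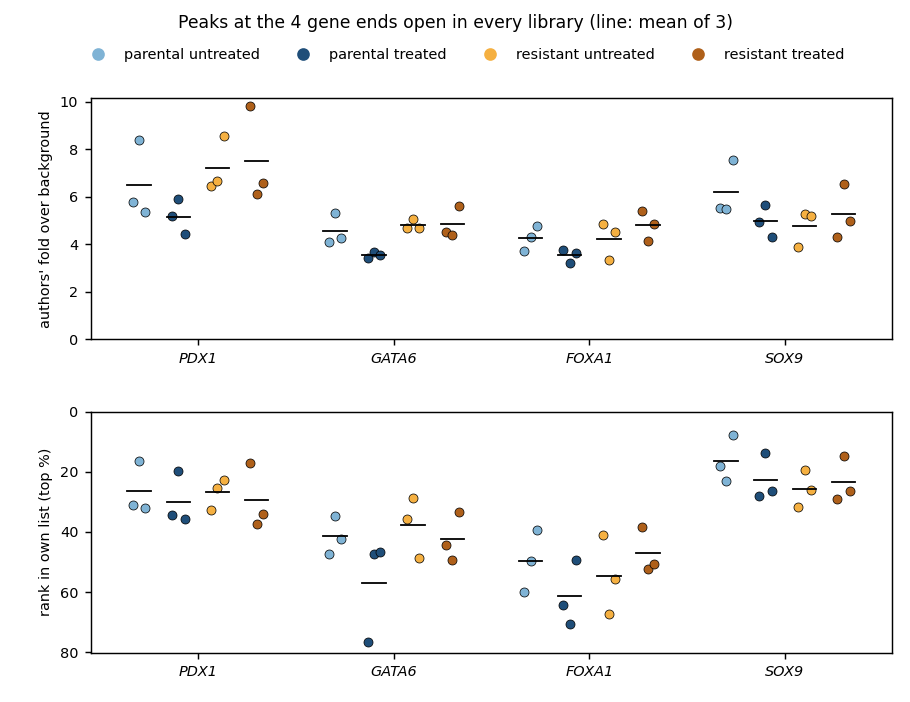
Strength of the peaks at the 4 genes open in every library. Upper axis, the fold over background written by the authors' peak caller. Lower axis, the rank of the peak by q value within its own list, in percent from the top. Each point is the best peak of 1 library and the line is the mean of 3. PDX1 reached 9.82-fold and SOX9 a rank in the top 7.64%, and the groups overlapped widely for most genes.

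GATA4 had the most covered bases of the 8 genes, in the longest window, of 123068 bp. Its peaks covered 2.72% of that window on average, below the highest share, 3.43% at SOX9. No peak lay within 1 kb of the outer ends of GATA4. The gene table gives only those ends, and the starts of the shorter GATA4 transcripts inside them could not be placed. Within the gene, chr8:11703839-11705632 and chr8:11746189-11746764 were called in 12 of 12 libraries. The former is the main open stretch of the gene, lies 26904 bp from the lower-coordinate end and spans the small nucleolar RNA gene SNORA99. It covered 1360, 1081 and 982 bp in untreated parental, 652, 667 and 731 bp in treated parental, 1787, 1479 and 1679 bp in untreated resistant, and 1760, 1083 and 1711 bp in treated resistant libraries. The 3 treated parental values lay below all 9 others, as in 21.3% of the regions called in 12 libraries.

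A region 15410 bp inside the lower-coordinate end, chr8:11692345-11693407, was missing in some treated parental libraries. It covered 583, 484 and 200 bp in untreated parental, 0, 0 and 205 bp in treated parental, 907, 776 and 679 bp in untreated resistant, and 878, 499 and 768 bp in treated resistant libraries. It was therefore called in 1 of 3 treated parental libraries and in 3 of 3 of each other group.

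Not every GATA4 region followed that order. At chr8:11765409-11765884, 5407 bp beyond the gene, the peaks covered 308, 348 and 256 bp in untreated parental, 289, 124 and 146 bp in treated parental, 125, 116 and 121 bp in untreated resistant, and 125, 112 and 143 bp in treated resistant libraries. The 3 untreated parental values lay above all 6 resistant ones there, as in 0.460% of the regions called in 12 libraries. This order was chosen for mention after the values were seen. It held for peak width only. Mean fold was 3.91 for untreated parental cells, and for resistant cells 4.38 without and 4.57 with the inhibitor. Mean rank was the top 45.6% for untreated parental cells, and for resistant cells 37.3% without and 41.5% with it. Single libraries overlapped on both measures, so weaker peaks in resistant cells are not shown. The strongest region of the window, chr8:11769301-11770747, lies at the ends of NEIL2, a DNA glycosylase gene, and LOC124901888, so it cannot be credited to GATA4 alone. The best peak of each library in that region ranked in the top 4.58% to 22.8% of its list.

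A further GATA4 region was called in 3 of 3 untreated and 0 of 3 treated resistant libraries, namely chr8:11736459-11736669. It covered 178, 140 and 121 bp in the untreated resistant libraries, and parental cells had it in 1 library of each treatment. Over all regions, 0.159% were lost in this way on treatment of resistant cells, against 1 of the 50 here. Presence by treatment, 4 of 6 untreated against 1 of 6 treated libraries, gave p = 0.242 by Fisher's exact test, two-sided, and an adjusted p of 1 over the 9507 regions called in 5 to 7 libraries. No other region of the 8 windows was gained or lost in 3 of 3 against 0 of 3 libraries in any pair of groups. Over all regions, treatment gained 0.117% and lost 0.921% in parental cells, and gained 0.138% in resistant cells. Resistant against parental cells gained 0.443% and lost 0.280% without treatment, and gained 1.41% and lost 0.433% under treatment.

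HNF4A was closed at both of its placed starts yet open between them. The gene is transcribed from a promoter used mainly in pancreas and intestine and from another used mainly in liver and kidney, and neither had a peak within 1 kb in any library. Inside both HNF4A and its antisense gene HNF4A-AS1, 3 regions lying close together were called in 10, 10 and 12 libraries, at chr20:44384481-44385041, chr20:44386492-44386899 and chr20:44388443-44388987. The nearest placed start is 12252 bp from the last of them. That region covered 368, 390 and 196 bp in untreated parental, 158, 186 and 309 bp in treated parental, 540, 424 and 225 bp in untreated resistant, and 368, 430 and 365 bp in treated resistant libraries. Its fold ran from 4.52 to 7.02, and its rank from the top 14.4% to 40.7%. Of the 19 HNF4A regions, 11 were called in 1 library.

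PTF1A and FOXA2 were close to or at no peak. PTF1A, the bHLH factor of acinar cells, had 2 regions, each called in 1 library. One covered 84 bp in treated parental replicate 2 at 2.98-fold, and the other covered 184 bp in treated resistant replicate 2 at 8.31-fold. The window of FOXA2, which reaches into the lncRNA genes LINC00261 and LNCNEF, held no peak in any of the 12 libraries. A list of peaks gives no depth at a place without a peak, so the absence says only that nothing passed the caller's threshold.

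Breadth across libraries differed little from the rest of the genome. Of the 50 regions, 28 (56%) were called in 1 library and 10 (20%) in 12, against 59.5% and 13.6% of all 178040 regions.

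Covered bases were then compared between phenotypes and treatments. Lists of the whole series differed in ways that move with the groups. The libraries held 46401 to 63259 peaks. Peaks covered 13.8 to 25.5 Mb in parental and 21.3 to 33.7 Mb in resistant libraries, the smallest peak was 67 to 87 bp wide in parental and 94 to 124 bp in resistant ones, and the relative depth inferred from the peak scores was 1.33 to 2.77 and 1.00 to 1.85 (shallowest library set to 1). Phenotype and treatment differences, the interaction at HNF4A and the separations between pairs of groups are therefore also given per Mb of the bases that the library's own peaks covered. Beyond that scaling, the part of depth and fragment width in the differences was not tested.

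GATA4, GATA6 and SOX9 had the largest differences between resistant and parental cells, and none passed adjustment. The GATA4 window held 4231, 3635 and 2473 bp of peaks in untreated parental, 1994, 1740 and 2027 bp in treated parental, 5040, 3817 and 4013 bp in untreated resistant, and 4212, 2830 and 4168 bp in treated resistant libraries. The resistant mean exceeded the parental mean by 1330 bp over the 2 treatments (exact permutation within treatment, two-sided, p = 0.020, Benjamini-Hochberg adjusted p = 0.0615 over 19012 genes). Treated resistant and treated parental values did not overlap, whereas untreated ones did. With the region at NEIL2 left out, a choice made after the data were seen, the GATA4 difference was 1312 bp and passed (exact permutation p = 0.005, adjusted p = 0.0395), as did 21.0% of all genes on the resistant side. Per Mb covered the GATA4 difference was 15.0 bases (exact permutation p = 0.21, adjusted p = 0.478), and 23.6 bases without the NEIL2 region (exact permutation p = 0.025, adjusted p = 0.185).

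The GATA6 window held 720, 697 and 438 bp in untreated parental, 325, 525 and 145 bp in treated parental, 1305, 649 and 1322 bp in untreated resistant, and 802, 690 and 1207 bp in treated resistant libraries. The difference between phenotypes was 521 bp (exact permutation p = 0.015, adjusted p = 0.0545). Per Mb covered it was 13.1 bases, with p = 0.035 by the same exact test and an adjusted p of 0.210, the smallest unadjusted p of the 8 genes on that scale.

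The SOX9 window held 1642, 1314 and 942 bp in untreated parental, 841, 924 and 1002 bp in treated parental, 1942, 1519 and 2481 bp in untreated resistant, and 2483, 1033 and 2571 bp in treated resistant libraries. Resistant libraries exceeded parental ones by 894 bp on average (exact permutation p = 0.020, adjusted p = 0.0615). Per Mb covered the difference was 17.3 bases (exact permutation p = 0.1, adjusted p = 0.331). The low value of treated resistant replicate 2 stood close to the highest treated parental one. Without that library, which covered 21.3 Mb, the least of the resistant lists, the difference was 1143 bp and passed adjustment. The share of all genes passing without it is not given here, so the pass cannot be read as particular to SOX9. Without untreated resistant replicate 2, the differences of 1448 bp at GATA4, 632 bp at GATA6 and 1009 bp at SOX9 passed too, but 6504 genes in all then passed on the resistant side, against 3994 with every library.

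The remaining genes differed less. The difference between phenotypes was 277 bp at FOXA1 (p = 0.160), 229 bp at HNF4A (p = 0.265), 103 bp at PDX1 (p = 0.435) and 16.7 bp at PTF1A (p = 1), by the same exact test. At PDX1 it was -5.67 bp without treated resistant replicate 3. All 7 genes with a peak were on the resistant side, as were 89.5% of the 19012 genes tested, and their median difference of 277 bp was below the 459 bp over all genes. The adjusted threshold of 0.05 was passed by 21.0% of all genes on the resistant side and by 0.0526% on the parental side, and by 0 of the 7. Unadjusted, 3 of the 7 were under 0.05, against 46.3% of all genes on the higher side. Per Mb covered, 0 genes passed adjustment in either direction, and the differences of PDX1 and HNF4A changed sign, to -1.31 and -1.72 bases per Mb. FOXA1 stood at 2.81 bases (exact permutation p = 0.715) and PTF1A at 0.715 bases (p = 1).

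**Figure D3:**
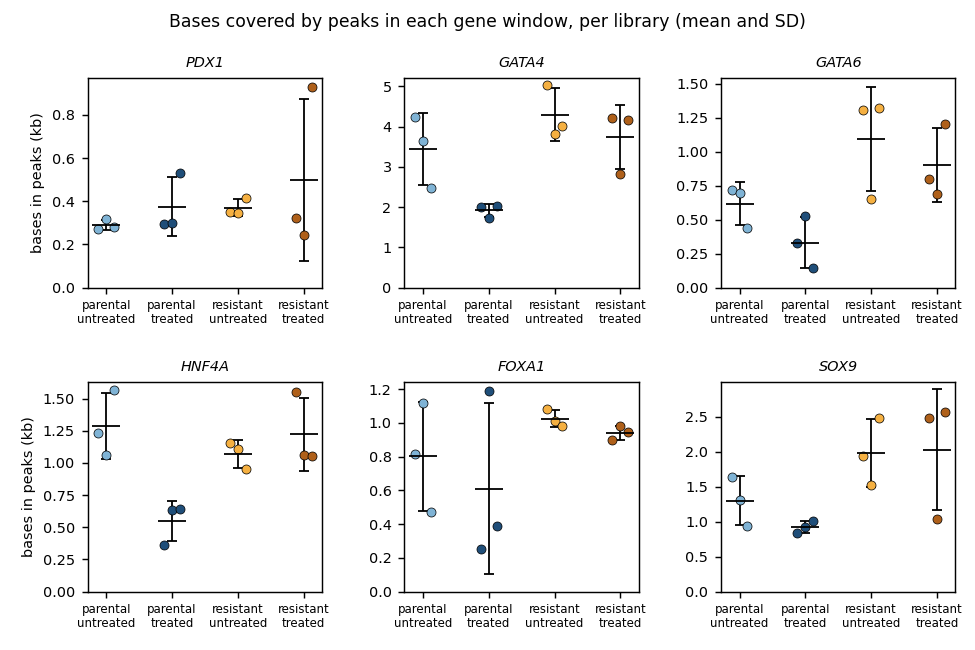
Bases covered by peaks in the windows of the 6 genes open in all libraries. The vertical axis is in kb, each point is 1 library, and the bar with whiskers is the mean and SD of 3. Treated parental libraries were the lowest group at GATA4, GATA6, HNF4A, FOXA1 and SOX9, with GATA4 at 1920 ± 157 bp (SD, n = 3).

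HNF4A was lower in treated than in untreated parental libraries on both scales. Its window held 1235, 1065 and 1570 bp in untreated parental, 365, 637 and 640 bp in treated parental, 1158, 1108 and 950 bp in untreated resistant, and 1550, 1063 and 1055 bp in treated resistant libraries. Treated parental libraries, with a mean of 547 ± 158 bp (SD, n = 3), lay below the 1290 ± 257 bp of untreated parental ones without overlap, as did 40.2% of all genes in this pair. They also lay below every resistant library. The share of all genes doing so was not counted, but 52.7% were separated in that direction from treated resistant libraries alone. With 3 libraries a side the exact permutation test cannot go below p = 0.100, the value found here. Per Mb covered the order of the parental groups held, at 31.4 ± 4.42 against 55.7 ± 17.9 bases, where 10.2% of all genes were lower without overlap. The 3 HNF4A regions called in 10 or more libraries covered 105, 211 and 318 bp on average in untreated parental libraries. In treated parental ones they covered 95.0, 79.7 and 218 bp. The larger part of the drop lay in regions called in fewer libraries. In untreated parental replicate 3 these included peaks of 283 and 341 bp at −log10 q of 1.70 and 1.18, near the smallest value of the lists.

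The response to treatment at HNF4A, taken as treated minus untreated, was 893 bp higher in resistant than in parental cells. An exact permutation of the treatment labels within phenotype gave p = 0.030, with an adjusted p of 0.835 over all genes. Per Mb it was 32.9 bases (exact permutation p = 0.010, adjusted p = 0.734). With only peaks of −log10 q of at least 3 kept, it was 390 bp on covered bases (exact permutation p = 0.11). The difference of the responses thus failed the correction on both scales. On covered bases 3.66% of all genes had a higher response in resistant cells at an unadjusted p under 0.05, and 0 passed adjustment. Per Mb covered that share was 3.98%, and 0 passed adjustment. The other 6 genes tested gave unadjusted exact p from 0.355 to 1 on covered bases.

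GATA4 was the other gene with lower values in treated parental libraries, at 1920 ± 157 bp against 3446 ± 894 bp (SD, n = 3) without overlap. Over all genes 40.2% were lower without overlap in this pair, against 2 of the 8 here. Per Mb covered GATA4 overlapped between them, and PDX1 was higher without overlap in treated parental libraries, as were 7.45% of all genes. Treated minus untreated over both phenotypes was -1040 bp at GATA4 (exact permutation p = 0.040, adjusted p = 0.279). Without the NEIL2 region it was -615 bp (exact permutation p = 0.095, adjusted p = 0.321). Over the whole windows it was -296 bp at HNF4A (p = 0.155), -240 bp at GATA6 (p = 0.13), -164 bp at SOX9 (p = 0.590), -137 bp at FOXA1 (p = 0.400), 107 bp at PDX1 (p = 0.455) and 44.7 bp at PTF1A (p = 0.5), by the same exact test. Per Mb covered it was -18.5 bases at GATA4 (exact permutation p = 0.12), -7.78 at HNF4A (p = 0.39), -4.85 at GATA6 (p = 0.365), 7.56 at PDX1 (p = 0.11) and 2.16 at PTF1A (p = 0.5), and it turned to 2.53 at SOX9 (p = 0.805) and 0.592 at FOXA1 (p = 0.945). On covered bases treated libraries had the smaller mean in 5 of the 7, and the median over all genes was -272 bp. At an unadjusted p under 0.05, 15.8% of all genes were lower and 0.0842% higher, and 0 passed adjustment.

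In resistant cells the treatment separated only FOXA1, at 941 ± 40.2 bp treated against 1024 ± 50.6 bp untreated (SD, n = 3), and 4.27% of all genes were lower without overlap in that pair. Per Mb covered FOXA1 overlapped and its order turned, at 36.5 ± 8.52 treated against 35.8 ± 3.71 bases untreated. Without treatment, only PDX1 was higher without overlap in resistant than in parental cells, at 371 ± 38.6 against 289 ± 24.2 bp, where 18.4% of all genes were. Per Mb covered PDX1 overlapped in this pair. Under treatment, GATA4, GATA6, HNF4A and SOX9 were higher without overlap in resistant cells, which is 4 of 8 against 52.7% of all genes. Per Mb covered only HNF4A kept that separation, at 46.2 ± 6.92 against 31.4 ± 4.42 bases, as did 15.0% of all genes. In the opposite directions none of the 8 genes was without overlap on covered bases, where the shares of all genes were 0.442% (treated parental higher), 0.857% (treated resistant higher), 0.694% (resistant lower without treatment) and 0.815% (resistant lower under treatment). Each of the 4 groups enters 2 of these 4 pairs, so the pairs are not independent of each other. In all of them the exact permutation p of a gene without overlap was 0.100, the smallest that 3 against 3 libraries allow.

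Other factors of endoderm and pancreas, 25 genes listed beside the 8, fell into the same kinds of start. A peak lay at the start in 12 of 12 libraries at 11 of them, including ONECUT1, MNX1, HHEX, NKX6-1 and FOXA3, and in none at 8, including NEUROG3 and NEUROD1, which drive endocrine differentiation, and RBPJL, the acinar partner of PTF1A. No start of these 25 differed by 4 or more of 6 libraries between phenotypes or treatments. By phenotype 6 of 24 tested passed the adjusted threshold on the resistant side and 0 on the parental side, beside the 21.0% of all genes. The smallest possible p of the exact permutation, 0.005 (adjusted p = 0.0395), was reached by ONECUT2, NR5A2, MAFA and HES1. ONECUT2, a cut homeodomain factor, was higher by 764 bp in resistant cells and NR5A2, a nuclear receptor of acinar cells, by 871 bp. HES1, a Notch effector, was higher by 669 bp, but per Mb covered its difference turned to -9.73 bases (exact permutation p = 0.535). None of the 6 passed per Mb covered, where the adjusted p of NR5A2 was 0.115.

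**Figure D4:**
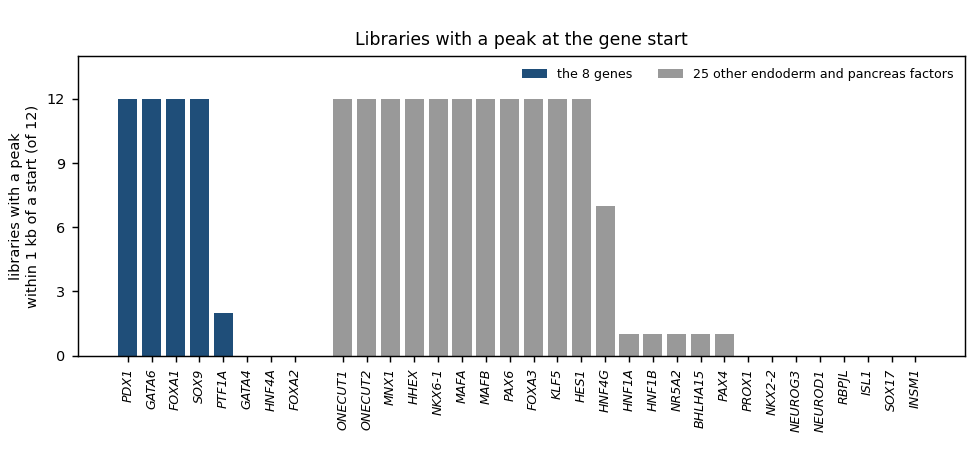
Peaks at the start of the 8 genes and of the 25 other factors. The vertical axis gives the number of libraries (of 12) with a peak within 1 kb of a start, or of either gene end where the start could not be placed. The 8 genes are on the left, with 4 at 12 libraries, PTF1A at 2 and 3 at 0, and the other factors are on the right, with 11 at 12 and 8 at 0. At GATA4 only the outer gene ends were searched, not starts inside the gene, so its 0 says nothing about those starts.

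The labelled cell type was checked on marker genes in the same way. Of 8 ductal and epithelial markers KRT8 and MUC1 had a peak at the start in 12 libraries. KRT18 had one at a gene end in 12 and KRT19 in 10, neither with a placed start. KRT7, EPCAM and CDH1, also without a placed start, and CFTR had 0 to 2. Of 4 mesenchymal markers VIM and ZEB1 had it in 12, FN1 in 9 and CDH2 in 0. Acinar PNLIP and CELA3A, endocrine INS and GCG, and blood PTPRC and CD3E were at 0. Acinar CPA1 and PRSS1 and endocrine CHGA were at 1, endocrine SST was at 3, and CTRB1, an acinar gene without a placed start, had a peak at a gene end in 10. The starts of KRT8, MUC1, VIM and ZEB1 and a gene end of KRT18 thus had a peak throughout. The epithelial cadherin gene CDH1 had none at its ends, and the mesenchymal cadherin gene CDH2 had none at its start. Among all protein-coding genes 55.7% had such a peak in 12 libraries and 27.3% in 0.

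Genes on other chromosomes with the most similar pattern of covered bases over the 12 libraries were TPM3 and SEC16A for GATA4, and KIAA1191 and KLHL17 for SOX9. After each gene was divided by its own mean, TPM3 differed from GATA4 by 0.0513 and SEC16A by 0.0519 per library on average, against a median of 0.158 over 8678 genes of like mean coverage. KIAA1191 and KLHL17 differed from SOX9 by 0.0979 and 0.0985, against 0.260 over 10591. These genes were picked for the smallest differences, so their place under the medians was fixed in advance. Whether the patterns follow the library totals was not tested.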

How the data were processed

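Peak lists were analysed, since they are the processed data used here. The authors mapped ATAC-seq reads with Bowtie2 2.1.0, discarded reads that were mitochondrial, duplicated or not uniquely placed, and ran MACS2 in paired-end mode on each library by itself to get broad peaks on hg38. Each deposited list gives positions, a score, a fold enrichment over local background, and the p-value and q-value of each peak as −log10 (the smallest −log10 q was 1 in every list). The score column was not used. The lists hold no reads, so the study's count model was not run and covered bases were tested instead. Peaks on chromosomes 1 to 22 and X were kept (0.892% were left out), and peaks overlapping by at least 1 bp were merged into regions.

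Bases covered in each gene window (20 kb on both sides) were compared with two-sided exact permutation tests, resistant minus parental within treatment and treated minus untreated within phenotype (400 assignments, smallest p 0.005), with Benjamini-Hochberg adjustment over 19012 protein-coding genes with a peak and a threshold of 0.05. The interaction and 4 pairs of groups (20 assignments) were tested likewise, and presence of regions with Fisher's exact test. Coordinates of genes and promoters are those of RefSeq on GRCh38.p14. Strand was taken from the promoter table, and both gene ends were used where it gave none. Relative depth was inferred from the most frequent pair of fold and p-value in each list under a Poisson background. Python 3.11.15, numpy 2.4.6, pandas 2.3.3 and scipy 1.17.1 were used, and scripts were tested on simulated data.

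The members, gene lists and tests were chosen with earlier results of these data known. Named were the 8 genes, their regions at the start, in most libraries, or differing by 4 or more of 6 libraries or by 3 of 3 against 0 of 3, other regions of interest chosen after their values were seen, other factors at the smallest p, and the 2 genes of most similar pattern for each of 2 members. Alternatives used stricter, equal-sized or width-filtered lists, shares of covered bases, windows of 5 and 50 kb, other gene sets, a replicate block, and all libraries but 1. Of the listed factors and markers, 2 are not reported here.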

Additional observations from a re-analysis of the deposited data

How the results depend on the processing

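The phenotype test called 3994 genes on the resistant side and 10 on the parental side. It called 9007 and 2 when −log10 q had to reach 3, 6431 higher with equal-sized lists, 5 lower with the width filter, 2008 and 5 with windows of 5 kb, 6263 and 20 with 50 kb, and 0 and 0 per covered base or with every annotated gene tested. Over all pairs of groups the numbers in the titles showed no common pairing. Same-number correlations of deviations ran from -0.212 to 0.225, and 10 of 36 best matches shared a number. Between treated and untreated resistant libraries the same-number values were 0.184, 0.225 and 0.0386, against -0.245 to 0.118 for unlike numbers. In parental cells they were -0.0237, 0.0381 and 0.0318, against -0.0527 to 0.0200. Whether the numbers link libraries within a cell line was not tested. With a replicate block the calls were 0 and 0, and the block allows no p under 0.03125. Regions differing by phenotype were 279 higher and 28 lower at −log10 q of at least 3, and 0 and 0 otherwise.

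Without single libraries the calls ran from 0 to 6504 higher (6504 without untreated resistant replicate 2) and from 0 to 22 lower. Non-overlapping members then ranged from 0 to 1 higher and 2 to 4 lower in treated against untreated parental, 1 to 3 higher and 0 to 1 lower in untreated resistant against parental, and 0 to 1 higher and 1 to 2 lower in treated against untreated resistant libraries. All-or-none member regions never exceeded 1 in any pair and direction, and the number lost in resistant cells on treatment was 1 each time. At −log10 q of at least 3, such regions were 1 lost in parental cells on treatment, 0 lost in resistant cells and 3 gained in treated resistant against parental cells. With 50% of a region required, 1 was lost in parental cells on treatment, 1 lost in untreated resistant and 1 gained in treated resistant against parental cells. Non-overlapping members were 0 lower in treated resistant and 2 higher in untreated resistant libraries at −log10 q of at least 3. Per covered base they were 1 higher and 1 lower in treated parental, 0 lower in treated resistant, 0 higher in untreated resistant and 1 higher in treated resistant against parental libraries. At −log10 q of at least 3, 2 members kept a start peak in every library, and within 5 kb 1 had none. Shares over all genes or regions in these settings are not given beside these counts. The counts can therefore not be read as particular to the members.

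Reversed signs were GATA6 interaction -116 bp with equal-sized lists, PDX1 and HNF4A phenotype -1.31 and -1.72, FOXA1 and SOX9 treatment 0.592 and 2.53 and PDX1 interaction -4.20 bases per Mb, and PDX1 and PTF1A treatment -196.5 and -28.7 bp with 50 kb. Leaving out single libraries, PDX1 phenotype ran from -5.67 to 166.6 bp, PTF1A phenotype from -14 to 32, PDX1 treatment from -1.67 to 170.6, SOX9 treatment from -299.8 to 84.7, and the interactions of PDX1 from -174 to 170.5, PTF1A from -28 to 64, GATA6 from -127.2 to 209.3 and FOXA1 from -70.5 to 398.5 bp. FOXA1 treatment kept its sign, from -281.6 to -47.1 bp. PDX1 reversed without treated resistant replicate 3, PTF1A and SOX9 without treated resistant replicate 2, GATA6 without untreated resistant replicate 2 or treated resistant replicate 3, and the FOXA1 interaction without untreated parental replicate 2 or treated parental replicate 1 or 3. Phenotype differences passed adjustment at GATA6 (615.5 bp), HNF4A (431.8 bp) and SOX9 (1328 bp) at −log10 q of at least 3, at GATA4 (1227 bp) with equal-sized lists and (1464 bp) with 5 kb, at GATA6 (552.5 bp) and SOX9 (940.7 bp) with the width filter, and at PTF1A (274.3 bp) and SOX9 (1394 bp) with 50 kb. Of all genes, 9007 passed on the resistant side at −log10 q of at least 3 and 6431 with equal-sized lists. The numbers for 5 kb and 50 kb are given above, and that for the width filter is not given here. These passes can therefore not be read as particular to the members. Apart from these, and the differences that passed without a library or without the NEIL2 region given above, member differences kept direction and side of the threshold. The causes were not tested. Depth under a peak is not given, so a place without a peak carries no limit.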
